A study of Mus musculus with 4 samples.

Results

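RLTR10 elements are long terminal repeat (LTR) sequences of endogenous retroviruses of the ERVK class. All rows of the deposited testis table whose repeat name starts with RLTR10 were taken, on both strands. These are 8 elements with 16 rows, among the 766 repeat elements and 25745 rows of the whole table. RLTR10B.LTR.ERVK, RLTR10B2.LTR.ERVK and RLTR10-int.LTR.ERVK came first, chosen by the difference of their sense reads between genotypes in these same libraries. The other 5 (RLTR10, RLTR10A, RLTR10C, RLTR10D and RLTR10E) were added by name. The genotype differences are therefore given as a description. Counts of elements past a threshold in that contrast stand only beside the share over all features and support nothing about the elements. The difference between strands was not itself used for the choice and is tested. That test still contains the sense reads by which RLTR10B, RLTR10B2 and RLTR10-int were chosen. Total testicular RNA from C57Bl/6J males at 60 days after birth was sequenced, with 2 libraries from Nef-sp-/- and 2 from Nef-sp+/- animals. NEF-sp is a nuclear 3′ to 5′ exoribonuclease found in the testis, and the knockout allele lacks 23 bp of its coding sequence after editing with a Cas9 nickase and paired guide RNAs. The control animals carry the same deletion on one chromosome, so no library comes from animals with both Nef-sp copies intact. All animals come from a single mutant line established with C57Bl/6J Rj males.

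An endogenous retrovirus is the remnant of a virus that once inserted into the germ line. In an intact copy, an LTR stands at each end and carries the signals for starting and ending transcription, and the internal sequence between them held the viral genes. Here the name ending in -int is the internal sequence, and the other 7 names are LTR types. Many copies have lost the internal part by recombination and remain as solitary LTRs. In the male germ line, such elements are kept silent by DNA methylation, by histone H3 lysine 9 methylation placed by SETDB1 with its partner TRIM28, and by small RNAs bound to PIWI proteins. LTRs can also serve the host, and RLTR10B and RLTR10B2 copies have been described as enhancers bound by A-MYB, the transcription factor of the Mybl1 gene that switches on many genes in spermatocytes.

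The libraries held between 20659865 and 34442517 reads assigned to an annotated feature, of which 14.2% to 14.9% were repeat sense reads. The reads of all genomic copies of an element are summed under its name, and which copies they came from is not recorded in the table. Element lengths and copy numbers were not used here, so that counts of different elements are not compared as levels. Here and in what follows, the values of a genotype are given in the order replicate 1, replicate 2. For the targeted gene, 2610020H08Rik, exon sense reads came to 1843 and 1693 normalized counts in the controls, against 406.5 and 497 in the knockout. On the log2 scale this gene fell by 1.97, with a standard error of 0.0921 (edgeR quasi-likelihood fit, adjusted p = 4.12e-06). Nothing in the labels says how the replicate animals relate to each other, and any p here measures only the spread between these libraries. Over repeat sense features, the replicates differed more than counting noise would give, since chi-square divided by its degrees of freedom was 10.1 between the controls and 14.5 between the knockout libraries. Over the 8 RLTR10 elements alone, the division of sense reads among the elements gave 1.03 and 1.89 for the same pairs. These values are not compared with those of the whole category. The measure grows with read depth, and the category includes abundant structural RNAs such as 7SL. Within the 8 elements it also leaves out any change shared by all of them. As the tissue was taken whole, fewer cells of a type and less RNA per cell cannot be told apart.

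The RLTR10B2 LTR had the largest sense difference in the family. Its sense reads numbered 280 and 439 in the Nef-sp+/- controls, and 443 and 513 in Nef-sp-/-. After scaling for library size, these were 316 and 321 normalized counts against 528 and 565. Both Nef-sp-/- libraries lay above both controls, and the lower of them was 1.65 times the higher control. The ratio of the genotype means was 1.72, with a log2 fold change of 0.78 (standard error 0.111).

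The closely named LTR RLTR10B was higher in both Nef-sp-/- libraries as well. It had 198 and 318 sense reads in the controls and 304 and 347 in Nef-sp-/-, or 223 and 233 against 363 and 382 normalized counts. The genotypes did not overlap, and the ratio of means was 1.64 (log2 fold change 0.71, standard error 0.12). The proportion of RLTR10B2 to RLTR10B differed little between genotypes, and both elements were chosen on a difference in the same libraries. For every 100 RLTR10B sense reads there were 141 and 138 RLTR10B2 sense reads in the controls and 146 and 148 in Nef-sp-/-. These values were slightly higher in Nef-sp-/-, without overlap, and the difference was not tested.

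RLTR10-int, the internal retroviral sequence, had the smallest sense difference of the 3 elements chosen first. Its 694 and 1007 control reads and 862 and 964 Nef-sp-/- reads corresponded to 782 and 737 against 1028 and 1063 normalized counts. The libraries again fell into separate ranges by genotype. The ratio of means was 1.38 and the log2 fold change 0.46 (standard error 0.0897). Relative to the internal sequence, reads of both LTR types together were more frequent in Nef-sp-/-, again among elements chosen on their difference. There were 68.9 and 75.2 RLTR10B and RLTR10B2 sense reads per 100 RLTR10-int sense reads in the controls, and 86.7 and 89.2 in Nef-sp-/-.

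**Figure D1:**
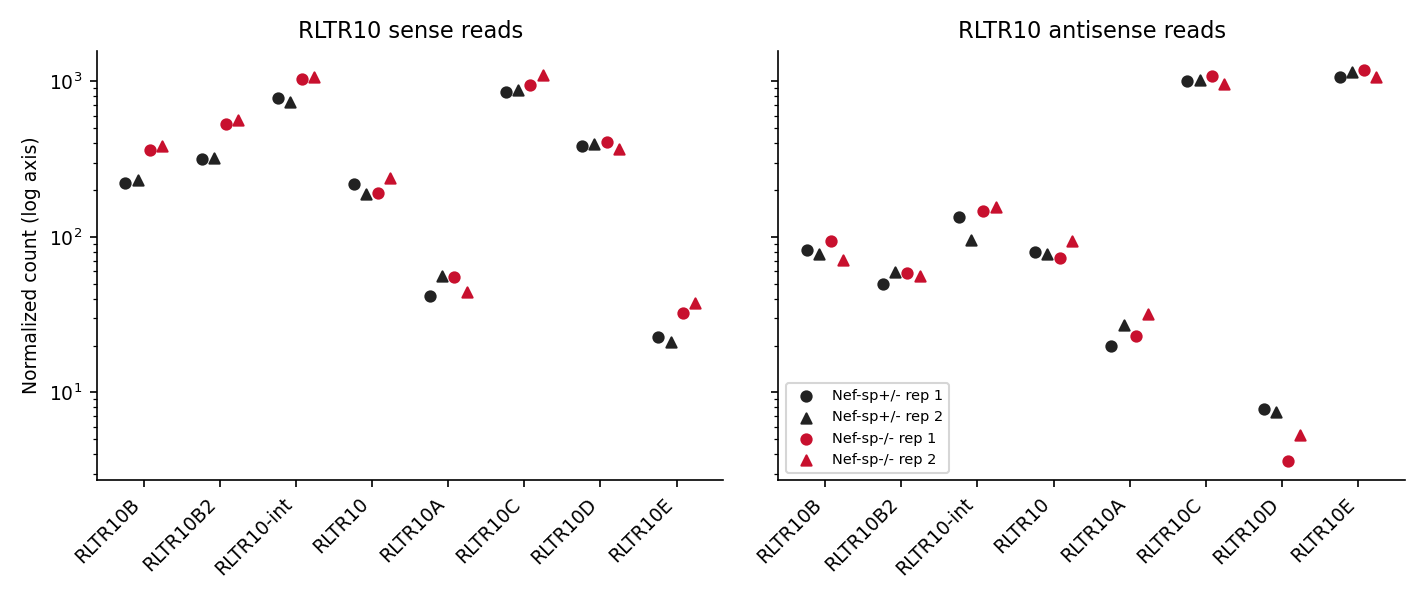
Normalized counts (log axis) of the 8 RLTR10 elements in each library, for sense reads on the left and antisense reads on the right, with Nef-sp+/- in black and Nef-sp-/- in red. Sense reads of RLTR10B, RLTR10B2, RLTR10-int, RLTR10C and RLTR10E lie higher in both Nef-sp-/- libraries, while antisense reads overlap between genotypes except for RLTR10-int and the sparsely covered RLTR10D.

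The 5 elements added by name did not behave alike. RLTR10C, the LTR with the most sense reads, had 849 and 878 normalized counts in the controls and 947 and 1107 in Nef-sp-/-. The ranges did not overlap, but the gap between the highest control and the lowest Nef-sp-/- library was only 1.08-fold, and the log2 fold change was 0.25 (standard error 0.0977). Without Nef-sp-/- replicate 2 it was 0.13. RLTR10E was rare on the sense strand, with 20 and 29 reads in the controls and 27 and 34 in Nef-sp-/-. Normalized, these were 22.5 and 21.2 against 32.2 and 37.5 counts, and the log2 fold change was 0.68 (standard error 0.273). At this depth the counting error alone is between 17.1% and 22.4% of each RLTR10E sense count.

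RLTR10D, RLTR10 and RLTR10A overlapped between genotypes. RLTR10D had 385 and 396 normalized counts in the controls and 409 and 368 in Nef-sp-/-, and its log2 fold change was −0.01 (standard error 0.115). Its read depth and standard error were close to those of RLTR10B2. RLTR10, the LTR without a letter, had 220 and 188 against 192 and 240.3 counts (log2 fold change 0.09, standard error 0.152). RLTR10A had 41.7 and 55.6 against 54.9 and 44.1 counts (log2 fold change −0.01, standard error 0.223).

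Over the family, all 8 elements passed the filter on low counts in the sense category, and the log2 fold change was positive for 6 and negative for 2. The median was 0.36, against 0.01 over all 578 repeat sense features tested and 0.05 over 119 other ERVK elements. In the fit, 3 of the 8 had an adjusted p below 0.05 and were higher in Nef-sp-/-. Over all features 4 did, or 0.692%, the 1 outside the family being the satellite GSAT_MM. Since this contrast chose the family, nothing is read from that count. Both Nef-sp-/- libraries were above both controls for 5 of the 8 elements, against 14.0% of all repeat sense features. They were below both controls for 0, against 15.6%. Those 5 are the 3 chosen on this difference and 2 of the 5 added by name. Among 119 other ERVK elements, both Nef-sp-/- libraries were above the controls for 26 and below them for 13. Of the log2 fold changes of these ERVK elements, 76 were positive and 43 negative. Leaving aside the 3 elements chosen first, the median of the other 5 was 0.09. They ranged from −0.01 to 0.68, and 0 of them had an adjusted p below 0.05 with edgeR, with 2 at an unadjusted p below 0.05. The calls also depended on the scaling, on the features fitted and adjusted together, and on 1 library. With scaling by the table's read totals, with scaling by the exon reads of genes, in a single fit of all categories and without Nef-sp+/- replicate 1, 0 of the 8 elements were called. In the fits that kept all 4 libraries, those 3 included, the log2 fold change of RLTR10B2 lay between 0.78 and 0.83, that of RLTR10B between 0.71 and 0.75 and that of RLTR10-int between 0.46 and 0.50.

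**Figure D2:**
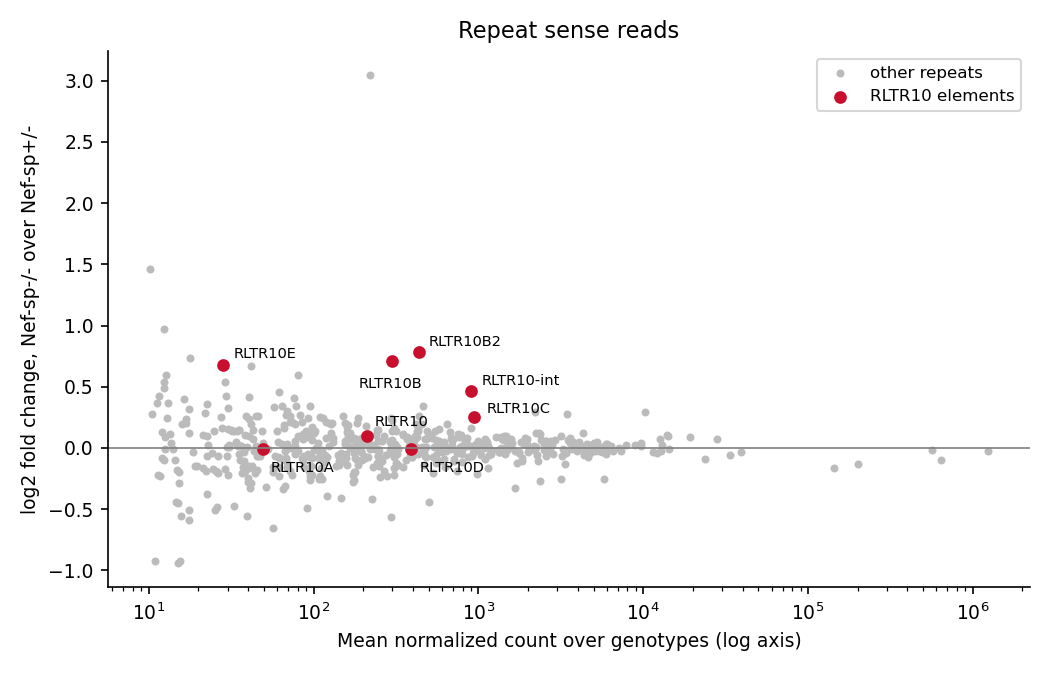
Each point is a repeat sense feature, with its mean normalized count (log axis) and its log2 fold change between genotypes (positive when higher in Nef-sp-/-), and RLTR10 elements are red. RLTR10B2 at 0.78, RLTR10B at 0.71 and RLTR10-int at 0.46, which were chosen by this difference, rank 4, 6 and 14 of 578 from the highest. RLTR10E, with few reads, at 0.68 and RLTR10C at 0.25 rank 7 and 47. RLTR10D, RLTR10 and RLTR10A lie between −0.01 and 0.09.

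Antisense reads of the same elements served as a comparison within the same RNA. RLTR10B antisense reads had 82.2 and 77.9 normalized counts in the controls and 93.5 and 71.2 in Nef-sp-/-, and the log2 fold change was 0.04 (standard error 0.215). RLTR10B2 had 50.0 and 59.2 against 58.3 and 56.3 counts, with a log2 fold change of 0.06 (standard error 0.229). For both LTRs the antisense libraries of the genotypes overlapped. RLTR10-int differed from them, with 134 and 95.2 antisense counts in the controls and 146 and 156 in Nef-sp-/-. Its antisense log2 fold change of 0.42 (standard error 0.197) was close to its sense value of 0.46, but it was 0.16 without Nef-sp+/- replicate 2. The elements with the most antisense reads were RLTR10E, with 1064 and 1146 against 1179 and 1066 counts, and RLTR10C, with 1010 and 1016 against 1081 and 961. Their log2 fold changes were 0.02 (standard error 0.103) and 0.01 (standard error 0.103), and the genotypes overlapped in both. RLTR10 and RLTR10A had antisense log2 fold changes of 0.10 (standard error 0.213) and 0.21 (standard error 0.315).

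Of the 8 elements, 7 passed the filter in the antisense category. RLTR10D did not, with 7 and 10 antisense reads in the controls and 3 and 5 in Nef-sp-/-. Of the 7, edgeR called 0 between genotypes, where the share of all 553 repeat antisense features was 0%, with 0 of the 7 and 13 of the 553 at an unadjusted p below 0.05. DESeq2 also called 0 features. Both Nef-sp-/- libraries were above both controls for 1 of the 7, against 11.4% of all antisense features, and below them for 0, against 12.8%. The median antisense log2 fold change of the 7 was 0.06, against 0.01 over all features of that category.

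When sense and antisense counts entered 1 model with the library as a block, the genotype difference of the sense strand exceeded that of the antisense strand by 0.70 on the log2 scale for RLTR10B2 (standard error 0.206) and by 0.65 for RLTR10B (standard error 0.211). For RLTR10-int the excess was 0.01 (standard error 0.193), for RLTR10C 0.22 (standard error 0.138) and for RLTR10E 0.64 (standard error 0.258). RLTR10D, with its few antisense reads, gave 0.69 with a standard error of 0.525. RLTR10 and RLTR10A gave −0.02 (standard error 0.199) and −0.25 (standard error 0.396). This excess contains the sense difference that chose the elements, so that nothing is read from its size or from the calls. Of the 8 elements, 0 were called in this model, and the share over all 576 repeats was 0%. At an unadjusted p below 0.05, edgeR had 20 of the 576 repeats and DESeq2, which also called 0, had 5.

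**Figure D3:**
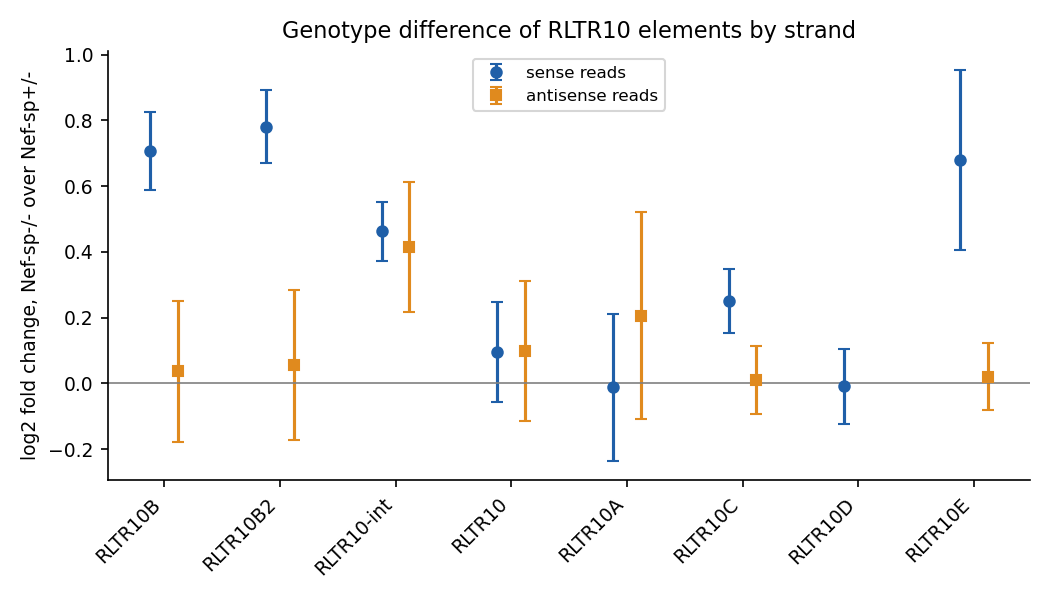
Points give the log2 fold change between genotypes (positive when higher in Nef-sp-/-) for sense (blue) and antisense (orange) reads of each RLTR10 element, and bars are 1 standard error. The bars of the strands are apart for RLTR10B, RLTR10B2, RLTR10C and RLTR10E, the last on few sense reads. The values are close together for RLTR10-int at 0.46 and 0.42, and no antisense value was fitted for RLTR10D.

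Summed over the family, RLTR10 sense reads came to 122 and 112 reads per 1000000 reads of the table (RPM) in the controls and 141 and 167 RPM in Nef-sp-/-. Antisense reads amounted to 107 and 97.1 RPM in the controls and 104 and 111 in Nef-sp-/-, and overlapped. The sense sums were separated by genotype, and include the 3 elements chosen on that difference. The highest sense sum belonged to Nef-sp-/- replicate 2, in which sense reads of the other ERVK elements were also highest, at 4537 RPM against 3832 to 4112 in the other 3 libraries. The part of this library in the family's sum was not tested. As a share of all ERVK sense reads, RLTR10 accounted for 2.88% and 2.85% in the controls and 3.40% and 3.55% in Nef-sp-/-. RLTR10 made up 0.0820% and 0.0774% of repeat sense reads in the controls and 0.0996% and 0.114% in Nef-sp-/-. Most repeat sense reads came from 5 structural RNAs (7SL, 7SK, large-subunit rRNA, U2 and U1). Without them the ratio of the genotype means of this share was 1.29 in place of 1.34.

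A larger share of the family's sense reads in Nef-sp-/- follows from how RLTR10B, RLTR10B2 and RLTR10-int were chosen, and is given as a description only. RLTR10B, RLTR10B2 and RLTR10-int together gave 46.5% and 45.6% of RLTR10 sense reads in the controls and 54.0% and 52.8% in Nef-sp-/-. The other 5 elements summed to 65.2 and 61.1 sense RPM in the controls and 65.0 and 78.8 in Nef-sp-/-, and overlapped. RLTR10C gave 29.9% and 31.0% of the control sense reads and RLTR10D 13.6% and 14.0%. On the antisense strand the makeup was another one. RLTR10E gave 43.4% to 45.7% of the antisense reads and RLTR10C 39.3% to 41.3% over the 4 libraries, while RLTR10B2 gave only 2.04% to 2.36%.

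The elements differed widely in the strand their reads came from. The sense share is the percentage of an element's reads, sense and antisense together, that ran in its own direction. RLTR10D was almost entirely sense, at 98.0% and 98.2% in the controls and 99.1% and 98.5% in Nef-sp-/-. RLTR10E was its opposite, with sense shares of 2.04% and 1.86% in the controls and 2.71% and 3.28% in Nef-sp-/-. In the control of replicate 1, the Wilson 95% intervals were 95.9% to 99.0% for RLTR10D and 1.33% to 3.14% for RLTR10E, and cover counting error only. RLTR10C had almost as many reads on each strand, with 45.3% and 46.9% sense in the controls and 47.1% and 52.6% in Nef-sp-/-.

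Between these lay the other LTRs and the internal sequence. RLTR10B2 was sense in 86.2% and 84.8% of control reads and in 90.2% and 90.6% of Nef-sp-/- reads. RLTR10-int had 85.2% and 88.8% in the controls and 87.8% and 86.8% in Nef-sp-/-, within the range of RLTR10B2. RLTR10B had 72.8% and 75.4% in the controls and 79.8% and 83.8% in Nef-sp-/-. RLTR10 stayed between 71.0% and 73.0%, a range that overlaps the lower end of RLTR10B. RLTR10A ran from 57.1% to 70.8%, just under RLTR10, but on as few as 55 reads a library, and the Wilson intervals of the 2 elements overlap. The order was thus RLTR10D, then RLTR10B2 with RLTR10-int, then RLTR10B, RLTR10 and RLTR10A, then RLTR10C and last RLTR10E.

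**Figure D4:**
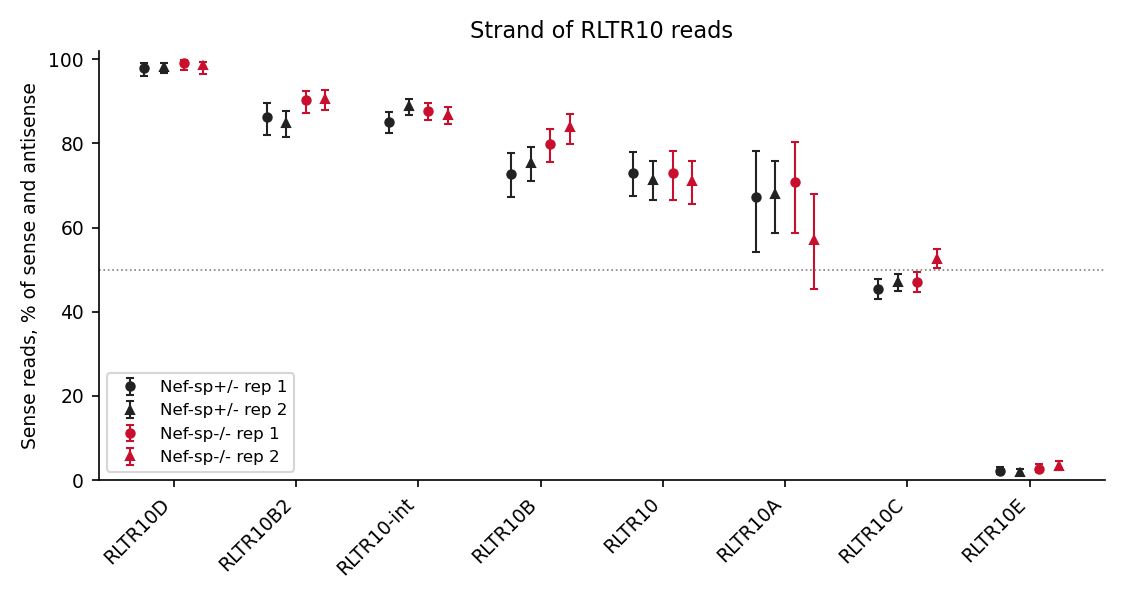
Sense reads as a percentage of sense and antisense reads for each RLTR10 element in each library, with Wilson 95% intervals that cover counting error, Nef-sp+/- in black and Nef-sp-/- in red. The elements run from RLTR10D, between 98.0% and 99.1%, to RLTR10E, at 3.28% or less, and RLTR10C lies near the dotted line at even strands.

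The strand preference was tested in all 4 libraries at once, with sense and antisense reads paired within each library and all 576 repeats in the fit. The log2 ratio of sense to antisense reads was 5.94 for RLTR10D (standard error 0.156, adjusted p = 2.15e-12 from edgeR), higher in 4 of 4 libraries. It was 2.89 for RLTR10B2 (standard error 0.131, adjusted p = 3.7e-10) and 2.77 for RLTR10-int (standard error 0.084, adjusted p = 7.39e-12). RLTR10B had a ratio of 1.85 (standard error 0.136, adjusted p = 4.65e-08), RLTR10 of 1.36 (standard error 0.0981, adjusted p = 3.78e-08) and RLTR10A of 0.94 (standard error 0.19, adjusted p = 0.000465). In each of these elements, sense reads outnumbered antisense reads in all 4 libraries. RLTR10E had a ratio of −5.33 (standard error 0.116, adjusted p = 3.43e-13), with antisense reads in excess in all 4. RLTR10C, at −0.12 (standard error 0.0693, adjusted p = 0.131), did not pass. It passed, with antisense in excess, in the Nef-sp+/- libraries alone (−0.22, adjusted p = 0.0184) and without Nef-sp-/- replicate 2 (−0.20, adjusted p = 0.0058), the library in which its sense reads were the more frequent.

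Sense reads were thus in excess for 6 of the 8 elements, against 54.2% of all repeats, and antisense reads for 1 of 8, against 38.0%. An excess of one strand was thus common among repeats in general. The median log2 ratio was 1.60 over RLTR10, 0.33 over 124 other ERVK elements and 0.38 over all repeats. RLTR10D ranked at position 7 and RLTR10E at position 129 of 132 ERVK elements ordered from sense to antisense. RLTR10B2 and RLTR10-int were neighbors at positions 23 and 24, between RMER13A at 2.92 (standard error 0.121) and RMER17C-int at 2.65 (standard error 0.176). RLTR10B, at position 37, lay between RLTR13C1 at 1.88 (standard error 0.268) and MMERVK10C-int at 1.80 (standard error 0.0667).

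**Figure D5:**
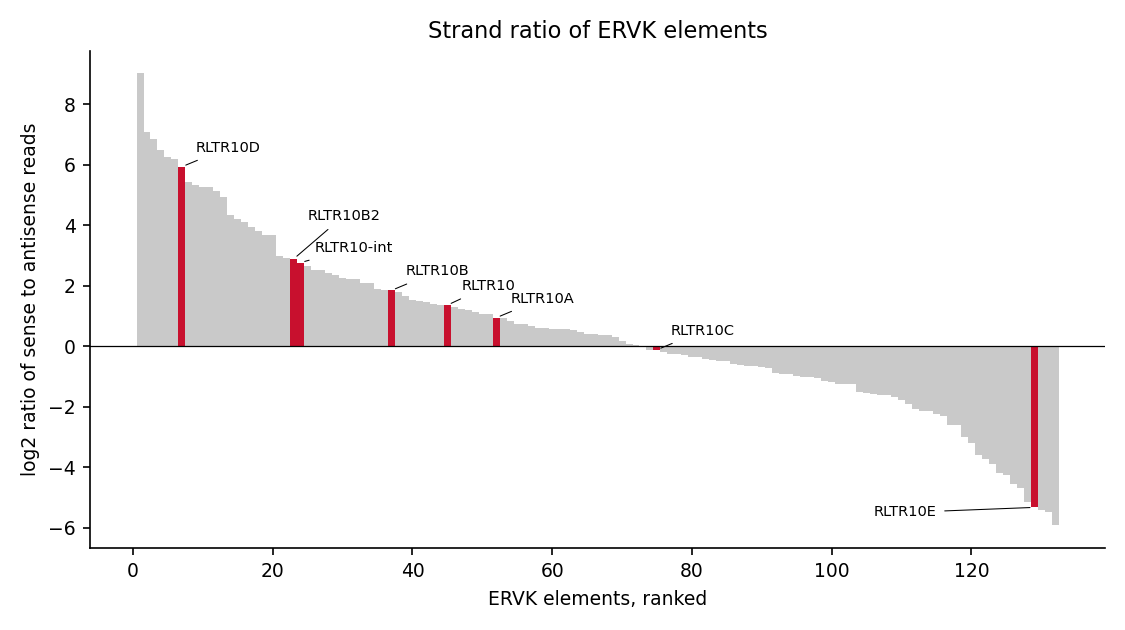
Bars give the log2 ratio of sense to antisense reads for 132 ERVK elements, fitted over the 4 libraries and ordered from most sense to most antisense, with RLTR10 elements in red. The family is spread over nearly the whole range, from 5.94 for RLTR10D to −5.33 for RLTR10E.

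Repeats not named RLTR10 were compared with the summed RLTR10 sense reads. That sum includes the elements chosen on their genotype difference. A close profile therefore has a similar genotype difference by construction, and the values are a description only. The closest sense profile over the 4 libraries was that of MMERVK10C-int, an ERVK internal sequence. How it relates to the RLTR10 LTRs was not examined. Likeness was measured as the root mean square difference of centered log2 counts, which was 0.0447 over the 4 libraries. MMERVK10C-int had 9101 and 9305 normalized counts in the controls and 10840 and 11710 in Nef-sp-/-, with a log2 fold change of 0.29 (standard error 0.0811). The LTR IAPLTR3 came next, with a difference of 0.0589 and 414 and 395 counts against 522 and 505. The ERVK LTR RLTR31_Mm, the DNA transposon Charlie4a and the LTR LTR87 followed, with differences of 0.062, 0.0804 and 0.0813. RLTR31_Mm had only 32.9 to 47.4 normalized counts and LTR87 only 14.6 to 19.8. Outside RLTR10, 0 of the 119 ERVK elements passed the threshold with edgeR between genotypes on the sense strand, and 9 had an unadjusted p below 0.05, as did 29 of all 578 repeat sense features.

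Genes that silence retroviruses were looked at in the exon sense reads of the same libraries, where 1 of 10728 genes, or 0.00932%, passed the threshold, the targeted gene itself. Of 29 genes of DNA and histone methylation and related repressors, 27 could be tested and 0 passed with edgeR, with 2 at an unadjusted p below 0.05, where 515 of all 10728 genes had one. Their median log2 fold change was −0.02, against 0.00 over all genes. Trim28 had 10110 and 9806 normalized counts in the controls and 9430 and 8731 in Nef-sp-/-, with a difference of −0.13 on the log2 scale (standard error 0.0624). The histone methyltransferase gene Setdb1 had a log2 fold change of −0.06 (standard error 0.0719), and Dnmt3l, a cofactor of germ line DNA methylation, had 0.24 (standard error 0.212) on 49.5 to 80.5 counts. The 2 genes with the smallest p were Resf1, which encodes a partner of SETDB1, at 0.29 (standard error 0.0868), and Uhrf1, which is needed to maintain DNA methylation, at −0.15 (standard error 0.0652). Of 26 genes of the piRNA pathway, 19 could be tested, 0 passed, and 0 had an unadjusted p below 0.05, with a median of −0.05. The log2 fold change was negative for 15 of these and positive for 4. In this list the log2 fold change was −0.09 (standard error 0.0871) for Piwil2 and 0.02 (standard error 0.0582) for Mael. Piwil4 was not matched in the table. DESeq2 called 2 genes in all, the targeted gene and Klk1b21, a kallikrein gene outside these lists that was not sought beforehand.

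Mybl1, whose product A-MYB binds RLTR10B LTRs, had 3104 and 3067 normalized counts in the controls and 2906 and 3024 in Nef-sp-/-, with a difference of −0.06 on the log2 scale (standard error 0.0582). Of 16 genes in a list of Mybl1 and genes described as its targets, 15 could be tested and 0 passed, with a median of 0.00 and 1 gene, the cyclin gene Ccnb3, at an unadjusted p below 0.05. Markers of testis cell types were summed to see what else moved with the elements. Spermatocyte markers summed to between 6905 and 7319 RPM and round spermatid markers to between 2257 and 2326, with overlapping genotypes. All 10 elongating spermatid markers had a positive log2 fold change, with a median of 0.15. Their sums were 21920 and 26380 RPM in the controls and 26780 and 25930 in Nef-sp-/-, with Nef-sp+/- replicate 1 apart from the rest. Leydig cell markers summed to 833 and 821 RPM in the controls and 773.5 and 671.5 in Nef-sp-/-, without overlap, and were lowest in Nef-sp-/- replicate 2. The log2 fold change was nevertheless positive for 5 of these 8 genes and negative for 3, with a median of 0.05, and the steroid synthesis genes Cyp11a1 and Cyp17a1 had −0.35 and −0.27. Spermatogonia, Sertoli, peritubular and macrophage lists had medians between −0.05 and 0.01. Peritubular markers summed to 59.97 and 57.23 RPM in the controls and 50.7 and 55.6 in Nef-sp-/-, lower without overlap. Macrophage markers summed to 320.9 and 340.2 RPM in the controls and 349.7 and 348.8 in Nef-sp-/-, higher without overlap. The spermatogonia and Sertoli sums overlapped between genotypes. Over these 8 lists, 60 genes were tested, of which 0 passed the threshold with edgeR and 6 had an unadjusted p below 0.05, where 515 of all 10728 genes did. Their part in the RLTR10 values was not tested.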

How the data were processed

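The authors removed adapters from strand-specific, ribosomal RNA-depleted total RNA reads of 50 cycles, mapped them to mm9 with in-house tools and kept perfect matches. They deposited raw counts per feature, annotation category and strand. Versions, and the handling of reads with several matches, which matters for repeats, are not given in the sources used here. The authors also deposited a mean normalized signal, a log2 fold change, a p-value and an adjusted p-value from DESeq2, none of which were used.

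Repeat sense, repeat antisense and gene exon sense counts were each fitted with the quasi-likelihood test of edgeR 4.0.16 (R 4.3.3) after filterByExpr (minimum count 10) and TMM scaling, without covariates. P-values were adjusted by the Benjamini-Hochberg method over all features of a category, at a threshold of 0.05. Normalized counts are counts divided by the relative effective library size. The standard error is the log2 fold change divided by the square root of F. The strand fit used sense and antisense counts as 8 columns with the library as a block and the library's total reads as its size. DESeq2 1.42.0 was an alternative. The fits were tested on simulated data, and figures were drawn with matplotlib 3.10.9. The simulated genotype changes were larger than any fitted for RLTR10, so differences of the RLTR10 size were not covered. Gene symbols were matched directly or through RefSeq synonyms.

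The elements and lists were chosen with earlier results of these data known. All RLTR10 rows are named, as are the 5 repeats with the most similar sense profile, the ERVK neighbors in strand ratio of the 3 elements chosen first, preset genes and the 2 genes with the smallest p of the silencing list.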

Additional observations from a re-analysis of the deposited data

How the results depend on the processing

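The 4 calls among repeat sense features became 0 when scaled by the table's read totals, with the TMM factors of exon reads and in a single fit over all categories, and 2 without an expression filter. The RLTR10 elements called went from 3 to 0 under the same 3 settings. In these, the median log2 fold change of all repeat sense features moved by less than 0.05. The single fit also adjusted p over the features of all categories together, a larger set than the repeat sense features alone. When each library was left out, between 0 and 10 repeat sense features, 0 and 3 RLTR10 elements, 1 and 4 repeat antisense features and 0 and 2 repeats of the strand by genotype fit were called, the lowest for RLTR10 without Nef-sp+/- replicate 1. A fit that leaves 1 library in a genotype assumes that it varies like the others. For exon reads the count ran from 1 to 252, highest without Nef-sp+/- replicate 2, and was 2 with DESeq2. With the replicate block, 3 repeat sense and 3 repeat antisense features passed, among them 2 RLTR10 elements on the sense strand and 0 antisense. Labels do not say that the numbers pair animals. Libraries sharing a number deviated from their genotype means with a correlation of −0.213 in repeat sense reads, and with crossed numbers, chosen after seeing this, 14 repeat sense, 7 repeat antisense and 99 exon features passed. TMM over both strands moved the median strand ratio from 0.38 to 0.00876, and RLTR10C was then −0.49 (adjusted p = 3.34e-05). Across the strand alternatives, 77 of 80 RLTR10 values kept their direction and side of the threshold, the 3 exceptions all being RLTR10C. Depth limits RLTR10E sense and RLTR10D antisense reads.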
